A study of Homo sapiens with 3 samples.

Results

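NUMB and 9 genes that act on it or set cell polarity with it were followed in HT29, an established human cell line derived from a colorectal adenocarcinoma. The miR-146a group is HT29 transduced by lentivirus with a miR-146a expression construct (2 arrays, replicates 1 and 2), and its control is HT29 transduced the same way with an empty vector (1 array). All cells were grown in serum-containing medium, and biotin-labelled cRNA from total RNA was hybridised to Affymetrix arrays. The sources used here do not say whether the transduced cells were a clone or a pool, which promoter drives the construct, or whether the replicates came from separate cultures. The members are NUMB, NUMBL, ITCH, LNX1, LNX2, AAK1, PARD3, PARD6B, PRKCI and LLGL2, and every probe set that the platform annotation pairs with exactly 1 of them was kept, low-signal sets included. This gave 31 of the 54613 probe sets besides controls and 10 of the 19775 genes that have such a probe set.

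NUMB is an endocytic adaptor that was described in Drosophila as a determinant passed to only one daughter of a dividing precursor, where it holds back Notch signalling. Its placement at the cell cortex depends on the Par complex (PARD3, PARD6 and atypical protein kinase C), which works against the LGL proteins at the opposite side of the cell. In colorectal cancer cells NUMB has been reported as a target of miR-146a in connection with symmetric division of stem-like cells, and the comparison here asks whether its transcript and those of its partners differ when miR-146a is expressed.

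The microRNA itself is shown first because its seed is what pairs with target transcripts. The mature sequences are RefSeq's (GRCh38.p14), written 5′ to 3′ with bases 2 to 8, the seed, in capitals. The arm from the 5′ side of the hairpin lies at chr5:160485372-160485393 and the arm from the 3′ side at chr5:160485408-160485429, both on the plus strand.
hsa-miR-146a-5p: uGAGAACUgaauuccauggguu
hsa-miR-146a-3p: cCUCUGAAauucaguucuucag
The seed of the 5p arm is carried by 3 of the 2370 human mature microRNAs in that table, miR-146b-5p (chr10:102436520-102436542, plus strand) among them, and the 3p seed by 1. The labels name miR-146a without an arm. The arrays hold 2 low-signal probe sets annotated to MIR146A, which differed by 0.31 (238225_at) and -0.16 (232504_at) log2 units from the vector, with adjusted p of 0.561 and 0.248 in limma over all probe sets. They may read the endogenous primary transcript and not the construct, so the labels could not be checked by them. Mature microRNA was not measured, and seed matches in the members' 3′ UTRs were not analysed here.

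Values are log2 signals as deposited, a difference is the miR-146a mean minus the vector value, and each SD is that between miR-146a replicates. The main test was limma over all 54613 probe sets with Benjamini-Hochberg adjustment at 0.05. The 3 arrays had median log2 values of 5.14 and 5.12 (miR-146a replicates 1 and 2) and 5.13 (vector), and their number limits the precision of every value. The vector array has no replicate, so every p-value assumes that it varies like the miR-146a pair, whose spread may be technical. The median signal over all probe sets was 5.13, and probe sets below it are called low-signal, since no detection calls were used. Of the 31 member probe sets 22 lay above it, and NUMB was the only member gene with none there. Above it also lay 207545_s_at and 209073_s_at, which are annotated to NUMB together with another gene and are not members. Of the colon epithelial markers 9 of 10 lay above that median, with KRT18 at 14.2, EPCAM at 12.9 and CDX2, a transcription factor of intestinal identity, at 5.67, averaged over both groups. The 10 epithelial markers had mean log2 values of 9.54 and 9.54 in the miR-146a arrays, against 9.63 in the vector array, and their differences ran from -0.54 (CDH17, an intestinal cadherin) to 0.10 (VIL1, an actin-bundling protein of the brush border), with KRT20, an intestinal keratin, at -0.24. Of 6 fibroblast markers 2 lay above it, COL1A1 at 7.25 and DCN at 5.15, and of 4 measured leukocyte markers 2 did, CD79A at 5.24 and LYZ, which intestinal secretory cells also make, at 12.9, while PTPRC read 3.38. Of 3 endothelial markers only PECAM1 (5.90) did, and mean log2 values of the 3 non-epithelial lists in the miR-146a arrays were 4.57 and 4.63 (fibroblast), 6.55 and 6.57 (leukocyte) and 4.57 and 4.59 (endothelial), against 4.67, 6.66 and 4.55 in the vector array. Control probe sets at the 5′ end read -0.23 (ACTB) and -0.31 (GAPDH) in the miR-146a arrays relative to the vector, and those at the 3′ end 0.04 and -0.02; the part of this in the differences below was not tested. As RNA came from whole cultures, fewer cells that express a gene and less RNA per cell cannot be told apart.

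PRKCI had the lowest difference among the members, while most of the polarity and NUMB-pathway transcripts lay close to the vector array. A low-signal PRKCI probe set, 209677_at, was 1.93-fold lower in the miR-146a arrays. The bright PRKCI sets 209678_s_at and 213518_at were 1.17-fold and 1.05-fold lower. All 30 member probe sets other than 209677_at lay between 1.25-fold lower and 1.16-fold higher. The only probe set of NUMB alone was 1.25-fold lower, at low signal. LNX1 was lower by both of its probe sets, and NUMBL and ITCH had probe sets on either side of the vector. No member passed limma over all probe sets (adjusted p = 0.0964 to 1), and neither did any other probe set (0 percent of all tested). That fit had 1 residual and 0.4545 prior degrees of freedom and called nothing. Not passing it therefore does not show that a transcript is unchanged. At an unadjusted p under 0.05 in limma, 6 member probe sets (19.4 percent) were lower and 0 higher, where 10.2 percent of all probe sets were lower and 10 percent higher. These 6 include 214998_at, 238100_at and 213518_at, whose miR-146a replicates were exactly equal, so that their SE measures no spread. With limma's variance prior taken from probe sets whose replicates differ, 2 (6.45 percent) were lower and 0 higher at that threshold. The shares of all probe sets were then 6.1 and 5.39 percent.

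NUMB was read by 230462_at, which gave 3.29 and 3.44 in the miR-146a arrays, against 3.69 in the vector array. Both miR-146a values lay under the vector's, and they were 0.15 apart. The difference was -0.32 ± 0.11 (limma SE; miR-146a SD 0.11, n = 2), with an adjusted p of 0.442 in limma over all probe sets. Over all probe sets in that range of signal (10 equal groups by signal), the 2 miR-146a arrays differed from each other with an SD of 0.16, and at 3.53 on average this probe set lay at percentile 22.9 of signal. By the smaller of its array differences it ranked 2644th from the lowest of 54613.

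A further 3 probe sets carry NUMB together with LOC101928143, an lncRNA entered next to NUMB in the RefSeq gene table with 0 genes between them. They were not counted as members, and by the annotation used here their signal cannot be assigned to either gene alone. The first, 207545_s_at, read 7.39 and 7.66 in the miR-146a arrays, against 7.59 in the vector array, so that the groups overlapped. 209073_s_at gave 7.24 and 7.27 in the miR-146a arrays against 7.65 in the vector array, a difference of -0.39, and 236930_at gave 4.51 and 4.44 against 5.38, a difference of -0.90. Both were under the vector in each miR-146a array, and by limma over all probe sets each had an adjusted p of 0.115. The low-signal set, 236930_at, ranked 30th lowest of all probe sets by the smaller of its array differences. The 4 readings that involve NUMB thus ran from -0.07 to -0.90.

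**Figure D1:**
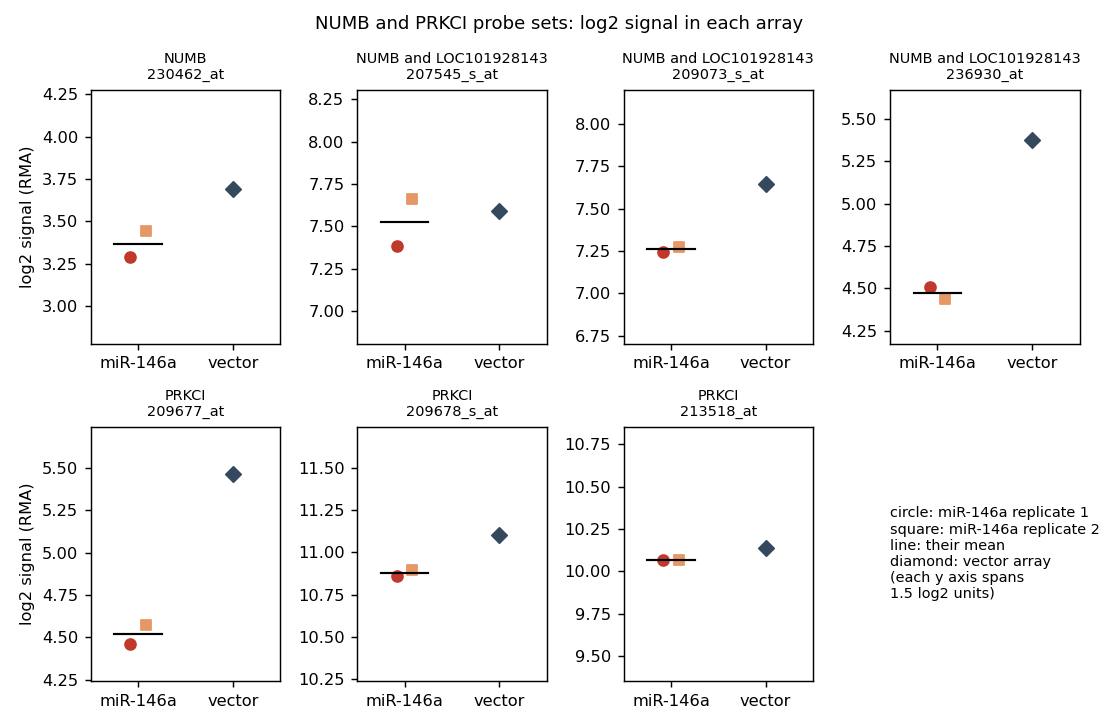
Log2 signal in each array for the probe set of NUMB alone, the 3 annotated to NUMB and LOC101928143, and the 3 of PRKCI (y axes of equal span, miR-146a left and vector right; circle and square, the 2 miR-146a arrays; line, their mean; diamond, the vector array). The miR-146a values lie under the vector's in 6 of the 7 panels, with 207545_s_at the exception, and the gaps of 209677_at and 236930_at are the widest.

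The pattern of 230462_at over the 3 arrays was compared with those of other genes, as a description only. Among 13623 probe sets of other genes with a signal within 1 log2 unit of 230462_at, the nearest in their array differences were those of TRPC7, LINC00605 and LYPD1, and 113 lay within a distance of 0.1.

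NUMBL, the close paralog of NUMB, had 2 probe sets that went opposite ways. 224059_s_at read 6.35 and 6.32 in the miR-146a arrays, against 6.44 in the vector array, a difference of -0.10. 242195_x_at read 10.12 and 10.08 in the miR-146a arrays, against 9.98 in the vector array, a difference of 0.12. In neither did the groups overlap, but the 2 differences cancelled to 0.01 when averaged, and the suffix of 242195_x_at marks a set that can cross-hybridise with other transcripts. The same limit holds below for 209744_x_at of ITCH, 221526_x_at of PARD3, and the brightest sets of SIAH1 (202981_x_at) and DAB2 (210757_x_at).

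The ubiquitin ligases came next. LNX1, which marks NUMB for degradation, read 6.85 and 6.95 in the miR-146a arrays against 7.10 in the vector array by 223611_s_at. By 223612_s_at it read 5.06 and 5.04 in the miR-146a arrays, against 5.23 in the vector array. All miR-146a values were under the vector's, and the differences were -0.20 ± 0.07 and -0.18 ± 0.02 (limma SE, n = 2 against 1), with adjusted p of 0.450 and 0.163 in limma over all probe sets. LNX2, a related ligase, was read by 227569_at, which held 9.34 in all 3 arrays with exactly equal values. Exactly equal values are a common feature of these deposited data: in 4 of the 31 member probe sets (12.9 percent) all 3 arrays were equal, against 8.29 percent of all probe sets, and in 7 the 2 miR-146a arrays were, against 19.3% of all probe sets. They give no SD for a test and do not show that the transcript is the same in both groups.

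ITCH, a HECT-type ligase that acts with NUMB on Notch1, had 6 probe sets with no common direction. The brightest, 209744_x_at, read 7.71 and 7.63 in the miR-146a arrays, against 7.83 in the vector array, a difference of -0.16. 235057_at also lay under the vector in both arrays (-0.09), while the low-signal 236235_at (4.73 and 4.55 against 4.43) and 239101_at (6.48 and 6.36 against 6.34) lay above it in both, by 0.21 and 0.08 on average. 217094_s_at was equal in all 3 arrays, and 209743_s_at lay on both sides of the vector. The mean of all 6 was -0.01, so the sign for ITCH depends on the probe set read.

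AAK1, the adaptor-associated kinase that phosphorylates the AP-2 complex and NUMB, had 7 probe sets with differences from -0.16 to 0.04. Its brightest sets, 225522_at (8.75 and 8.63 in the miR-146a arrays, 8.67 in the vector array) and 205434_s_at (8.76 and 8.55, against 8.69), each had the vector value between the 2 replicates. The low-signal 214998_at had 3.84 in both miR-146a arrays, against 4.01 in the vector array. Because its replicates were exactly equal, limma gave it an SE of 0.0046 and the smallest adjusted p of the members, 0.0964, for a difference of only -0.16.

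The 3 Par complex members differed from the vector in unlike ways. PARD3, its scaffold, had 4 probe sets above the median signal. 221526_x_at (9.33 and 9.26 in the miR-146a arrays, 9.18 in the vector array) and 221280_s_at (6.44 and 6.30, against 6.25) lay above the vector in both arrays, by 0.11 and 0.12. 210094_s_at, the brightest, differed by -0.01 (9.40 and 9.38, against 9.40), and 221527_s_at lay on both sides. PARD6B, the adaptor that joins PARD3 and atypical protein kinase C, was read above the median signal by 235165_at alone, at 8.46 and 8.74 in the miR-146a arrays, against 8.71 in the vector array, so that the groups overlapped. Its low-signal sets, 211907_s_at and 214827_at, were each equal to the vector in replicate 2.

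PRKCI encodes atypical protein kinase C iota, the kinase of the Par complex, which phosphorylates NUMB and the LGL proteins and so displaces them from the apical cortex. 209677_at read 4.46 and 4.57 in the miR-146a arrays, against 5.47 in the vector array. 209678_s_at, designed from the same accession, read 10.86 and 10.89 in the miR-146a arrays, against 11.10 in the vector array. 213518_at read 10.07 in both miR-146a arrays, against 10.14 in the vector array.

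All 3 PRKCI probe sets were under the vector in each miR-146a array, but by unequal amounts. 209677_at differed by -0.95 ± 0.08 (limma SE), and it ranked 22nd lowest of the 54613 probe sets by the smaller of the array differences. The bright sets 209678_s_at and 213518_at differed by -0.22 ± 0.03 and -0.07 ± 0.0046 (limma SE). The replicates of 213518_at were exactly equal, so its SE of 0.0046 measures no spread between them. With a prior from unequal replicates that follows signal, its SE was 0.069. With limma over all probe sets the adjusted p were 0.152, 0.185 and 0.132. 209677_at was a low-signal set, with 4.99 averaged over the groups, so the filter at the median would remove it. The mean of the 3 sets differed by -0.41 ± 0.03 (limma SE in the fit of gene means; -0.44 and -0.39 in replicates 1 and 2; adjusted p = 0.194).

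LLGL2, the LGL protein of epithelia that marks the basolateral side, was read by 2 probe sets. 203713_s_at held 7.65 in all 3 arrays with exactly equal values, which do not show that the transcript is the same in both groups. 1554006_a_at read 7.45 and 7.36 in the miR-146a arrays, with the vector array between them at 7.37.

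**Figure D2:**
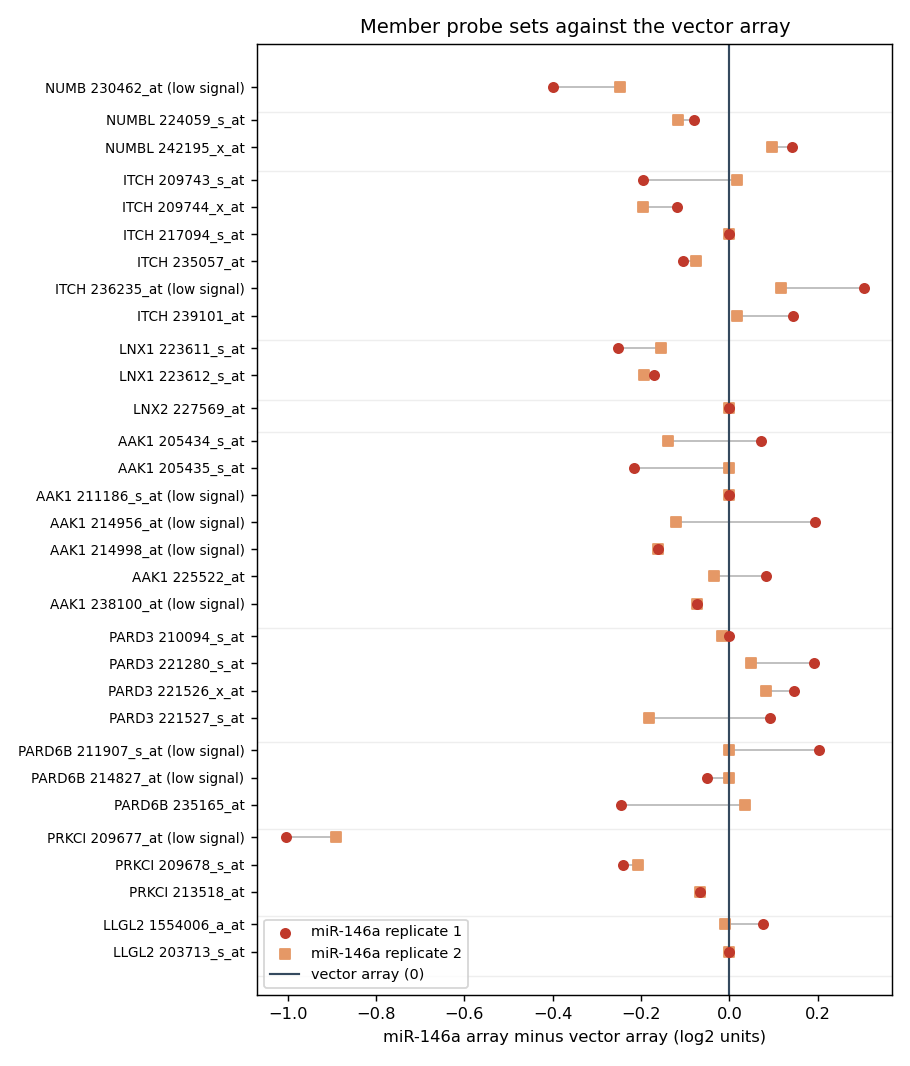
Difference of each miR-146a array from the vector array (log2 units, x axis) for the 31 member probe sets, grouped by gene; circles are miR-146a replicate 1, squares replicate 2, and the line at 0 is the vector array. 209677_at of PRKCI stands apart with a mean of -0.95, and all other members lie within -0.40 and 0.30 in each array.

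Counted over the members, 11 of 31 probe sets (35.5 percent) lay under the vector in both miR-146a arrays, where 28.9 percent of all probe sets did, and 5 (16.1 percent) lay above it in both, where 29.1 percent of all did. A further 7 had the vector between the replicates, 4 equalled it in 1 miR-146a array and 4 in both. The median difference was -0.03 over the members and 0.00 over all probe sets. At least 1.2-fold lower in both arrays was 1 member (background 4.37 percent) and at least 1.2-fold higher 0 (background 3.87 percent). That 1 member, 209677_at of PRKCI, was also at least 1.5-fold lower in both, as were 0.485 percent of all probe sets.

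**Figure D3:**
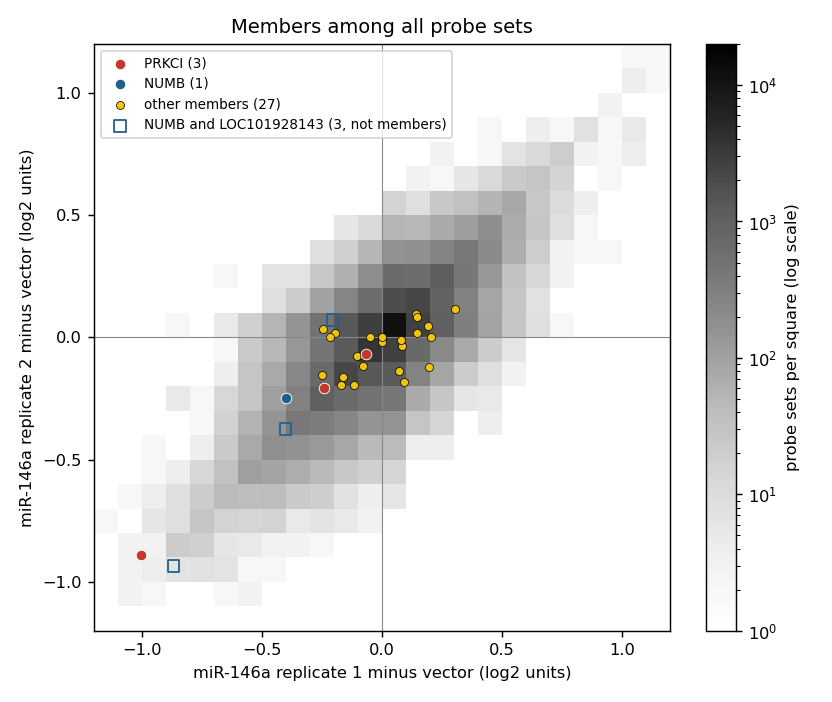
Difference of miR-146a replicate 2 from the vector (y axis) against that of replicate 1 (x axis), both in log2 units and sharing the vector array; grey squares count all 54613 probe sets on a log scale (25 lie outside the axes), coloured points are the members and open squares the sets shared with LOC101928143. Most members lie in the dense centre, and 209677_at of PRKCI and 236930_at lie at the lower left edge.

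Limma drew its variance prior partly from exactly equal replicates. With the prior taken from the probe sets whose replicates differ, 1816 probe sets passed (3.33 percent, 1061 of them lower) and 1 of the 31 members, 209677_at of PRKCI (adjusted p = 5.3e-09, limma). The prior is then so firm that each probe set receives the same SE of 0.137. Allowing the prior to follow signal, a choice made after the data were seen, 6.32 percent of all probe sets passed and 2 members, 209677_at (adjusted p = 8.2e-07, limma; SE 0.163) and 209678_s_at of PRKCI (adjusted p = 0.0058, limma; SE 0.0602). NUMB did not pass in either (adjusted p = 0.245 and 0.297, limma). Of the sets shared with LOC101928143, 236930_at passed in both (adjusted p = 3.9e-08 and 4.1e-06, limma) and 209073_s_at only with the signal-dependent prior (adjusted p = 0.101 and 0.0083, limma). These p-values take the spread of the miR-146a pair for that of a separately transduced culture.

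The wider pathway was read through 5 lists, with the brightest probe set of each gene. At this level no gene of the lists passed limma (0 percent of all 19775 genes did, and 13 of the 60 list genes, or 21.7 percent, had an unadjusted p under 0.05, where 21.1 percent of all genes had one), while 27 percent of all genes were lower and 33.1 percent higher in both arrays. With a prior from genes with unequal replicates, 5.97 percent of all genes passed, and 7.84 percent when that prior follows signal. The median difference over all genes was 0.0028.

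In the apical list (Par and Crumbs complexes, 12 genes, PRKCI, PARD3 and PARD6B among them) 5 were lower and 1 was higher in both arrays, and the median was -0.05. PALS1, the Crumbs scaffold, differed by -0.15 and did not pass. PRKCI, through 209678_s_at, passed only with the signal-dependent prior (adjusted p = 0.0048, limma).

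In the basolateral list (Scribble module, 10 genes with LLGL2) 4 were lower and 4 higher in both arrays, and the median was -9.5e-04. LLGL1, the other mammalian LGL gene, read 7.81 and 7.71 in the miR-146a arrays, against 7.40 in the vector array, a difference of 0.36. In the fit over genes it passed with the prior from unequal replicates (adjusted p = 0.0224, limma). Over all probe sets it did not pass with that prior (adjusted p = 0.147, limma). With the signal-dependent prior it passed in both fits (adjusted p = 0.0093 over genes and 0.0131 over all probe sets, limma). Its 2 other probe sets differed by -0.08 and -0.13, and the mean of the 3 by 0.05. DLG1, a scaffold of the module, differed by -0.12 in its brightest probe set, and its 7 probe sets ran from -0.47 to 0.10. Over all probe sets with the prior from unequal replicates, its sets 202514_at and 202516_s_at passed (adjusted p = 0.0242 and 0.0283, limma). YWHAZ, a phosphoserine-binding adaptor, was lower in both arrays by all 5 of its probe sets (-0.16 to -0.46). Its brightest passed only with the signal-dependent prior (adjusted p = 0.0262, limma). Its set 200641_s_at passed over all probe sets with the prior from unequal replicates (adjusted p = 0.0326, limma).

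Among 11 spindle orientation genes 3 were lower and 4 higher in both arrays, and the median was 0.03. GNAI1, a G protein alpha subunit that anchors the orientation machinery, differed by -0.28 (8.38 and 8.48 in the miR-146a arrays, 8.71 in the vector array), and its other probe set by -0.27. It passed only with the signal-dependent prior (adjusted p = 0.0202, limma). GPSM2, which links these subunits to NUMA1, differed by -0.15 in its brightest probe set and was lower in both arrays by all 4 of its probe sets. Its set 205240_at differed by -0.37 and passed over all probe sets only with the signal-dependent prior (adjusted p = 0.0010, limma). NUMA1 differed by 0.14 in its brightest probe set, but its 5 sets ran from -0.51 to 0.34. The lowest, 214251_s_at, passed over all probe sets with the prior from unequal replicates (adjusted p = 0.0108, limma).

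Of the 13 endocytic partners of NUMB, AAK1 among them, 3 were lower and 5 higher in both arrays, and the median was 0.02. EPS15, an endocytic scaffold that NUMB binds, differed by -0.26 (8.40 and 8.35 in the miR-146a arrays, 8.63 in the vector array), with its other set at -0.20. It passed only with the signal-dependent prior (adjusted p = 0.0440, limma). DAB2, another clathrin adaptor, differed by -0.24 with replicates at -0.40 and -0.08, and BMP2K, a kinase related to AAK1, by 0.16; neither passed limma with any of the 3 priors.

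Of the 14 ligases and turnover factors, ITCH, LNX1 and LNX2 included, 6 were lower and 5 higher in both arrays, and the median was -0.01. SMURF2, a HECT-type relative of ITCH, read 8.48 and 8.63 in the miR-146a arrays, against 8.26 in the vector array, a difference of 0.30, and passed only with the signal-dependent prior (adjusted p = 0.0153, limma). Its 4 probe sets ran from -0.10 to 0.30. SIAH1, a RING-type ligase reported to act on NUMB, had exactly equal replicates and differed by 0.22 in its brightest set (adjusted p = 0.0335 in the same setting, limma), with other sets from -0.26 to 0.10. NEDD4, the ligase after which the family of ITCH is named, differed by 0.30 in its single probe set, also with equal replicates, and did not pass.

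**Figure D4:**
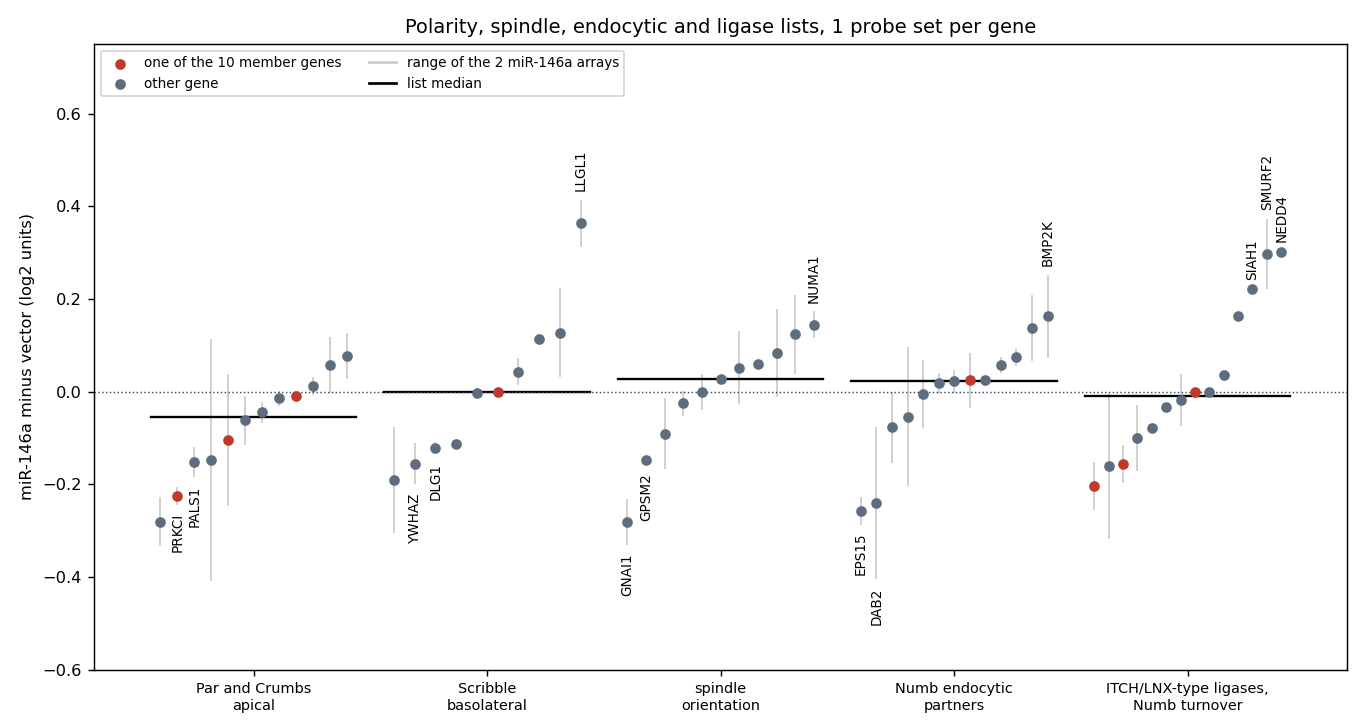
Difference between miR-146a and vector (log2 units, y axis) for the brightest probe set of each gene in 5 lists; points are means of the 2 miR-146a arrays, grey lines join those arrays, black bars are list medians, and red points are the 10 members where a list holds them. The medians lie between -0.05 and 0.03, and LLGL1 is the highest point at 0.36.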

How the data were processed

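The deposited table gives log2 expression values, which the authors made with RMA per the submitters' processing notes (which corrects background, brings arrays to a common distribution and summarises each probe set by median polish). The sources used here give no RMA version and do not say whether the 3 arrays were processed alone. Groups and replicate numbers come from the sample titles.

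Of 54613 probe sets besides 62 controls, the platform annotation supplied with the data pairs 41091 with a single gene and 1801 with several, and leaves 11721 unnamed; symbols were updated through Entrez numbers in the RefSeq gene table. Each probe set was tested separately, without a filter, by limma 3.58.1 in R 4.3.3 (lmFit, then eBayes; two-sided; Benjamini-Hochberg over all probe sets, threshold 0.05; 1 residual degree of freedom). Folds are 2 to the power of the log2 difference. No value gives a depth; array signal limits precision. The fits were run on simulated data in which the vector array had the same spread as the miR-146a arrays. That simulation therefore cannot check whether the real vector array varies like the miR-146a pair.

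Alternatives were a prior from probe sets with unequal replicates (tolerance 0), that prior with a signal trend, an intensity trend in limma's own prior, only probe sets above the median signal, cyclic loess, quantile normalization, leaving out either miR-146a array, and the mean of a gene's probe sets. The second was added after the data were seen. The members and lists were chosen with earlier results of these data known. The genes named are every member and, per list, those 3 genes with the largest smaller-of-2 array difference; for NUMB, the 3 genes with the nearest array differences. One gene that this rule names in the apical list is not reported here. Figures were drawn with matplotlib 3.10.9.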

Additional observations from a re-analysis of the deposited data

How the results depend on the processing

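The count of member probe sets called, 0 in limma, was 1 with the prior from unequal replicates and 2 with that prior and a signal trend, which also moved the count over all probe sets to 1816 and 3453 from 0; the count of member genes called became 1 (PRKCI) with the signal trend. With an intensity trend in limma's own prior, above the median signal, with cyclic loess or with quantile normalization, no member and no probe set was called. Members lower in both arrays numbered 15 with cyclic loess and 15 with quantile normalization, from 11. Those higher in both numbered 7 and 6, from 5. Leaving out either miR-146a array leaves no test, and 15 to 17 members were then lower and 7 to 11 higher than the vector. Above the median signal 7 of 22 members were lower in both arrays, since 9 low-signal sets were left out. For these counts of direction the share of all probe sets was not computed, so they give no result about the members. With each gene's probe sets averaged, the median of the spindle orientation list was -0.0014, and the cause was not tested; the other 4 list medians moved by less than the spread between replicates. No paired analysis was possible because the vector array is single and shares no replicate numbering with the miR-146a arrays.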
